A study of Arabidopsis thaliana with 12 samples.

Results

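Anthocyanins are the red and purple flavonoid pigments of Arabidopsis leaves, and 9 genes of their synthesis were followed here through the leaf transcriptomes of 4 genotypes. The 9 genes were chosen by name, as 3 transcriptional activators and 6 enzymes, out of 33197 genes with an identifier in the deposited table. All 9 are in that table, and 6 of them (PAP1, CHS, F3H, DFR, LDOX and UGT75C1) had values high enough to be tested, DFR and LDOX only through their high values in anac017. The other 3 (PAP2, TT8 and UF3GT) are given by their values only. No member passed the test at an adjusted p of 0.05 in anac017, anac082 or anac090 against the wild type, where 2.09%, 0.0476% and 7.31% of all genes tested did. Every one of the 9 reached its highest value in a library labelled anac017, with 7 of these in anac017 replicate 3. Of all genes tested, 16.9% were highest in an anac017 library and 5.38% in anac017 replicate 3. These shares do not cover the 3 members that were not tested. F3H and UGT75C1 were lowest in libraries labelled anac090, as were 41.0% of all genes tested.

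The series has 12 RNA-seq libraries from leaves aged 18 days, 3 from each genotype. All plants were of the Columbia ecotype of Arabidopsis thaliana. The wild type is the parent of the other lines, and each of anac017, anac082 and anac090 is labelled as a T-DNA insertion line in 1 gene of the NAC family of plant transcription factors. All were grown in long days with no treatment named, and the labels do not say which insertion each line carries, nor whether the 3 libraries of a genotype came from separate plants. The p-values therefore measure the spread between these libraries, which may be technical.

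Anthocyanins are built from phenylalanine through the general phenylpropanoid pathway. Chalcone synthase and flavanone 3-hydroxylase make intermediates that are shared with the colourless flavonols, and the later enzymes, dihydroflavonol reductase and anthocyanidin synthase, lead to the pigment itself. Glycosyltransferases then attach sugars that make the pigment stable and soluble, and it is stored in the vacuole. In Arabidopsis the later genes are switched on by a complex of an R2R3-MYB factor such as PAP1 or PAP2, a basic helix-loop-helix factor such as TT8 and the WD40 protein TTG1. In leaves the pigment is best known from strong light, cold, sugar excess, nutrient shortage and ageing.

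Promoter sequence is shown for the 5 enzyme genes whose values are described at most length below, because basic helix-loop-helix and bZIP factors of light and flavonoid control are known to bind the G-box CACGTG. Each window is the 250 bases before the annotated start in RefSeq's TAIR10.1 assembly, read 5′ to 3′ on the strand of the gene. The windows are chr5:4488226-4488475 on the plus strand for CHS, chr3:19024942-19025191 on the plus strand for F3H, chr5:17166033-17166282 on the minus strand for DFR, chr4:12006210-12006459 on the minus strand for LDOX and chr4:8123836-8124085 on the minus strand for UGT75C1. Capitals mark CACGTG, or ACCAACC on either strand, a motif of the kind that MYB factors bind.
CHS: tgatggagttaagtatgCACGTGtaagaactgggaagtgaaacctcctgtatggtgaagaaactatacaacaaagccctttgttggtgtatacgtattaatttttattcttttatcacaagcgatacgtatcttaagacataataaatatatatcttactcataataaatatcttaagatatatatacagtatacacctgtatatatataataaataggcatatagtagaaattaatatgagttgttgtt
F3H: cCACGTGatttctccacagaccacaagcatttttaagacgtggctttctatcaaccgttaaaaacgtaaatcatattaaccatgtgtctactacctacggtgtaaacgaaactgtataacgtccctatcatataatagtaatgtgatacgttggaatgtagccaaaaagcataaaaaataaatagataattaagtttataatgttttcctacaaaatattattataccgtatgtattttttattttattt
DFR: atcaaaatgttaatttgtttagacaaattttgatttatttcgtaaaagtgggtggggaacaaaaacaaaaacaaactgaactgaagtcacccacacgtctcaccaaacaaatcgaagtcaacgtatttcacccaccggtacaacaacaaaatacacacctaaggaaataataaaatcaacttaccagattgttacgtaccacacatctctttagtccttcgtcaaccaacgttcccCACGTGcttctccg
LDOX: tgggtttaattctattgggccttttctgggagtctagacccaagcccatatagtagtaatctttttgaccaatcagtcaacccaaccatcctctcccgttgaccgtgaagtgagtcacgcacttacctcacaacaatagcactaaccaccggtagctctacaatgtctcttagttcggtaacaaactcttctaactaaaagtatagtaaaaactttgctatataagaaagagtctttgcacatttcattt
UGT75C1: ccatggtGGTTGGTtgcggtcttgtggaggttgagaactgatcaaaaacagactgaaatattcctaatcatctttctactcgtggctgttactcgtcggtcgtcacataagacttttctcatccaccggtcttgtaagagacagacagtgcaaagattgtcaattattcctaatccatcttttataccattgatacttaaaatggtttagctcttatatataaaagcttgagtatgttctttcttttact

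CACGTG, which reads the same on both strands, lies in the windows of 5 of the 9 genes (PAP2, CHS, F3H, DFR and UF3GT) and in 6.49% of 27443 windows of protein-coding genes. It ends 9 bases before the start in DFR and begins 249 bases before it in F3H. The UF3GT window holds it at 2 positions. The looser E-box CANNTG, searched on both strands and including every CACGTG, lies in 6 of the 9 windows and in 55.3% of all windows. ACCAACC, searched on both strands, lies in TT8 and UGT75C1 and in 2.69% of all windows, and ACCTACC lies in 0 of the 9 and in 1.16% of all. A match describes these letters in this window only. The RefSeq start lies 212 bases before the gene start of the deposited table for CHS and 114 bases before it for DFR, and at the same base for F3H, LDOX and UGT75C1.

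All levels below are on the deposited scale, treated as log2(abundance + 1), and all differences are on the same log2 scale, so they understate changes of low genes. An abundance here is the back-transformed value, and 3 libraries stand behind each mean and SD. Levels are compared between libraries for 1 gene and not between genes. The table gives no reads, so depth is unknown, and a 0 may be a failed estimate. Quantile normalization between libraries had fixed the distribution of each library, so a change shared by most genes is not visible.

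Some properties of the libraries bear on what follows. The gene ANAC017 was 0.86 ± 0.14 (SE) higher in the libraries labelled anac017 than in wild type (limma adjusted p = 0.0152) and ANAC082 was 4.81 ± 0.11 higher in those labelled anac082 (adjusted p = 2.68e-09), both opposite to a loss of transcript, so each mutant name below stands for the libraries labelled with it. ANAC090 was 0.60 lower in those labelled anac090 (SE 0.30, adjusted p = 0.192). On the first principal component, which holds 51.0% of the variance, anac082 replicate 1 (-27.0) lies near the wild type libraries (-35.6 to -29.7), and anac090 replicate 3 (74.1) lies far from all others. Mesophyll markers were near the top of the scale in all 12 libraries (RCA at 11.1 to 11.4), and LHCB1.3 was at the highest value of the table, 12.3, in each, where normalization fixes it, so they show the tissue and not its constancy. The 3 seed storage markers were listed at 0 throughout, and of 3 flower markers AP1 was listed at 0 and the others were near 0.

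Of the activators, PAP1 (MYB75, AT1G56650, 1:21233595-21235137 on TAIR10) was the one expressed well enough to test. It is an R2R3-MYB factor whose overexpression is known to turn Arabidopsis purple. Its levels were 1.57, 2.05 and 2.35 in wild type replicates 1 to 3 and 1.50, 2.83 and 2.63 in the anac017 libraries. They were 1.20, 1.68 and 2.68 in the anac082 libraries and 1.77, 2.33 and 2.32 in the anac090 libraries. Replicate 1 had the lowest value in each of the 4 genotypes, and the ranges of all genotypes overlapped. By mean and SD the order was anac017 (2.32 ± 0.72), anac090 (2.14 ± 0.32), wild type (1.99 ± 0.39) and anac082 (1.85 ± 0.75), and no neighbours in this order differed beyond their spread. Against wild type, PAP1 differed by 0.33 ± 0.42 (SE) in anac017, -0.14 ± 0.42 in anac082 and 0.15 ± 0.42 in anac090, and the adjusted p-values were 0.644, 0.931 and 0.833.

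PAP2 (MYB90, AT1G66390, 1:24763957-24765541), a close relative of PAP1 that can also switch on the later enzymes, was listed at 0 in 8 of the 12 libraries. In the libraries labelled anac017 its levels were 0.35, 0.19 and 0.54. The remaining value above 0 was 0.10 in anac090 replicate 1. The 3 anac017 values thus lie above all 9 others, at levels far under the minimum for testing. Of 1788 genes listed at 0 in every wild type library and above 0 elsewhere, 81 (4.53%) were above 0 in all 3 anac017 libraries. PAP1, PAP2, MYB113 and MYB114 are similar in sequence, so the assignment of reads between them is uncertain. MYB113 was listed at 0 in every library, and MYB114 was above 0 only in anac017 replicate 1 (0.22) and anac090 replicate 1 (0.59).

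TT8 (AT4G09820, 4:6182023-6186493), the helix-loop-helix partner of PAP1 and PAP2, was listed at 0 in 9 libraries. Its highest level was 0.16 in anac017 replicate 3, followed by 0.03 in anac017 replicate 2 and 0.03 in anac082 replicate 3. No difference can be read from values this low.

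**Figure D1:**
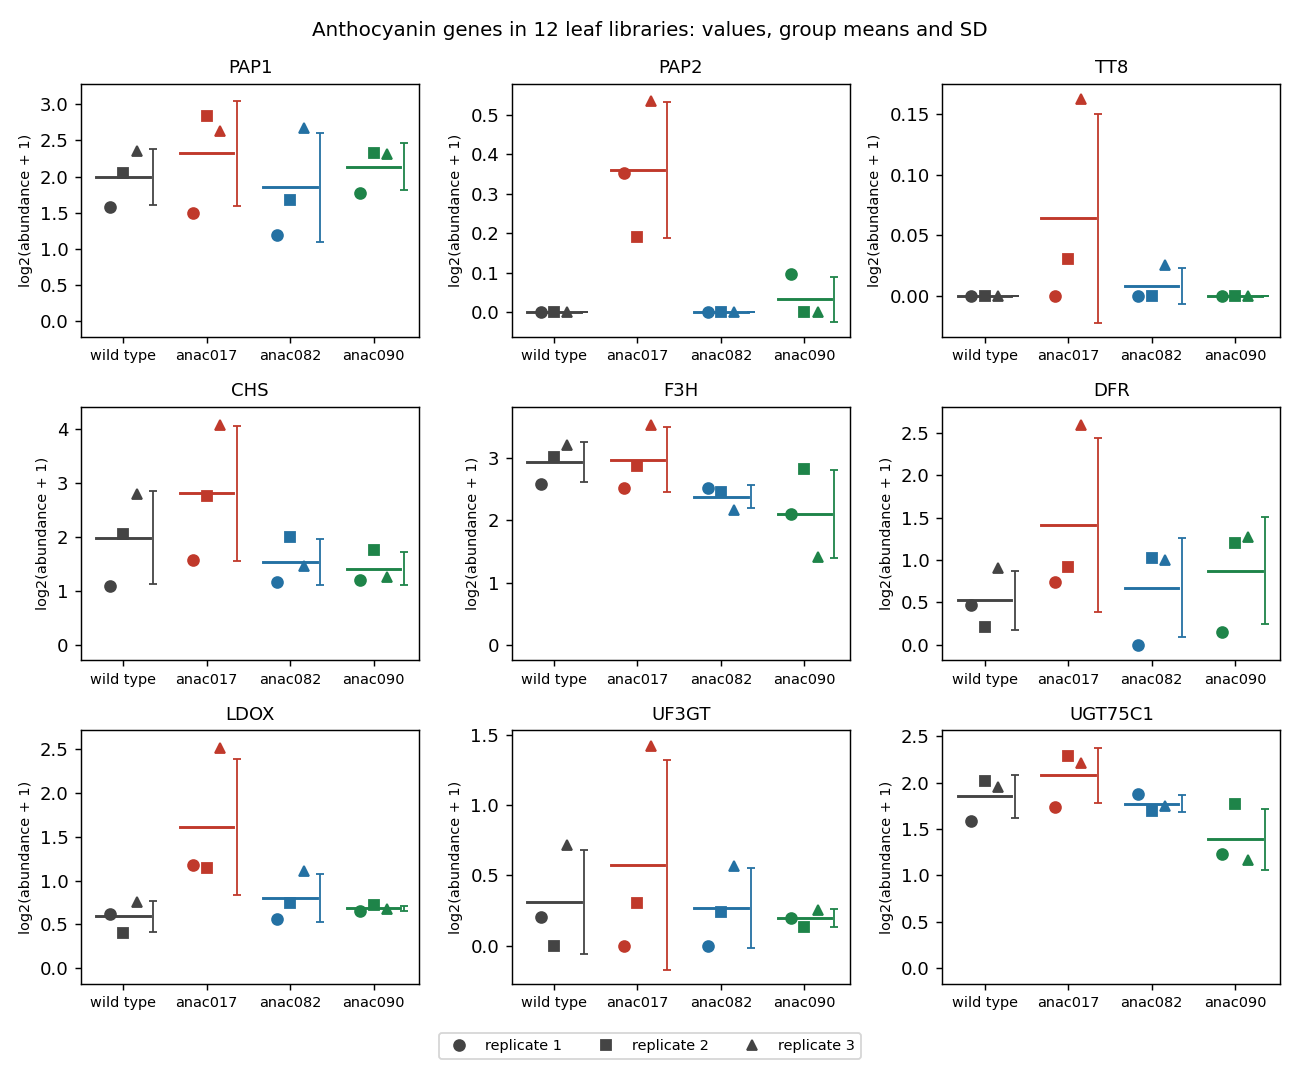
Level of each anthocyanin gene, in log2(abundance + 1), in the 12 libraries, with a horizontal line at each group mean and a bar of 1 SD beside it (3 libraries a group, marker shape gives the replicate number, the vertical scale differs between genes). CHS, DFR, LDOX and UF3GT reach their highest point in anac017 replicate 3, and F3H and UGT75C1 their lowest in anac090 replicate 3. Of all genes tested, 5.38% were highest in anac017 replicate 3 and 28.1% lowest in anac090 replicate 3.

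CHS (AT5G13930, 5:4488688-4490264) encodes chalcone synthase, the entry step from phenylpropanoids into flavonoids. Its levels were 1.08, 2.06 and 2.80 in wild type replicates 1 to 3 and 1.57, 2.76 and 4.07 in the anac017 libraries. They were 1.16, 1.98 and 1.45 in the anac082 libraries and 1.20, 1.76 and 1.25 in the anac090 libraries. The values spread widely within wild type and anac017, and all 4 ranges overlapped. The order by mean was anac017 (2.80 ± 1.25), wild type (1.98 ± 0.86), anac082 (1.53 ± 0.42) and anac090 (1.40 ± 0.31), with no neighbours apart beyond their spread. CHS was 0.82 ± 0.57 (SE) higher in anac017 than in wild type, with a 95% interval from -0.43 to 2.08 and an adjusted p of 0.374. The same-numbered libraries differed by 0.49, 0.70 and 1.28. The size rests on single libraries: it was 0.19 without anac017 replicate 3, 0.37 without wild type replicate 1 and 1.44 without anac017 replicate 1. The difference from wild type was -0.45 in anac082 and -0.57 in anac090, with adjusted p-values of 0.828 and 0.510.

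F3H (AT3G51240, 3:19025192-19026872) encodes flavanone 3-hydroxylase, which makes the dihydroflavonols used for both flavonols and anthocyanins. Its levels were 2.58, 3.02 and 3.21 in wild type replicates 1 to 3 and 2.51, 2.88 and 3.54 in the anac017 libraries. They were 2.51, 2.46 and 2.17 in the anac082 libraries and 2.1, 2.82 and 1.41 in the anac090 libraries. Wild type and anac017 had nearly the same mean (2.94 ± 0.32 and 2.98 ± 0.52), and their difference was 0.04 ± 0.34 (SE, adjusted p = 0.952, 95% interval -0.72 to 0.80). All 3 anac082 values (mean 2.38 ± 0.18) lay below all wild type values, by 0.55 ± 0.34 on average (adjusted p = 0.710). The lowest mean was that of anac090 (2.11 ± 0.71), 0.83 ± 0.34 below wild type with a 95% interval of the change from -1.58 to -0.07, an unadjusted p of 0.0347 and an adjusted p of 0.127. The same-numbered libraries of anac090 and wild type differed by -0.49, -0.19 and -1.80. The size thus varied between pairs while the direction did not. The ranges of anac090 and wild type overlapped, and how many of all genes were lower in every pair was not counted. Without anac090 replicate 2 the difference of F3H was -1.18, with an adjusted p of 0.0189, where 29.8% of all genes were called instead of 7.31%. Without anac082 replicate 1 and anac090 replicate 3 the difference was -0.48, with an adjusted p of 0.413. An RNA gene (AT3G51238) overlaps 1588 bases of F3H and was at 0.22 or below in all libraries.

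DFR (AT5G42800, 5:17164141-17165918), dihydroflavonol 4-reductase, is the first enzyme of the branch that leads to anthocyanins. Its levels were 0.47, 0.21 and 0.90 in wild type replicates 1 to 3 and 0.74, 0.91 and 2.59 in the anac017 libraries. They were 0, 1.02 and 1.00 in the anac082 libraries and 0.15, 1.20 and 1.27 in the anac090 libraries. The value of 2.59 in anac017 replicate 3 stands well above every other, and the ranges of the genotypes overlap. The order by mean was anac017 (1.41 ± 1.03), anac090 (0.87 ± 0.63), anac082 (0.67 ± 0.58) and wild type (0.53 ± 0.35), and neighbours did not differ beyond their spread. DFR was 0.89 ± 0.50 (SE) higher in anac017 than in wild type, with a 95% interval from -0.22 to 1.99 and an adjusted p of 0.278. The same-numbered libraries differed by 0.26, 0.70 and 1.70, and without anac017 replicate 3 the difference was 0.30 (adjusted p = 0.728).

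LDOX (AT4G22880, 4:12004768-12006209), leucoanthocyanidin dioxygenase, makes the coloured anthocyanidin. Its levels were 0.62, 0.40 and 0.75 in wild type replicates 1 to 3 and 1.18, 1.14 and 2.51 in the anac017 libraries. They were 0.56, 0.74 and 1.10 in the anac082 libraries and 0.66, 0.72 and 0.67 in the anac090 libraries. All 3 anac017 values lay above every value of the other 9 libraries, with replicate 3 highest as for DFR. The share of all genes with this pattern was not counted, and LDOX was tested only because of its anac017 values. The mean was 1.61 ± 0.78 in anac017 and 0.80 ± 0.28, 0.68 ± 0.03 and 0.59 ± 0.17 in anac082, anac090 and wild type, which overlapped. LDOX was 1.02 ± 0.32 (SE) higher in anac017 than in wild type, 2.03-fold, with a 95% interval from 0.31 to 1.73 and an adjusted p of 0.0974, which did not pass the threshold. The same-numbered libraries differed by 0.56, 0.74 and 1.76, and without anac017 replicate 3 the difference was 0.57.

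DFR and LDOX came into the test through the anac017 libraries, so their intervals and p-values against anac017 are a description and support no difference. The mean abundance over all 12 libraries was 1.07 for each, just above the minimum of 1, and over the 9 libraries other than anac017 it was 0.694 for DFR and 0.629 for LDOX. Their presence among the tested genes is therefore tied to their high values in anac017.

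UGT75C1 (AT4G14090, 4:8122188-8123835) encodes the anthocyanin 5-O-glucosyltransferase. Its levels were 1.59, 2.02 and 1.95 in wild type replicates 1 to 3 and 1.74, 2.29 and 2.21 in the anac017 libraries. They were 1.87, 1.70 and 1.75 in the anac082 libraries and 1.23, 1.77 and 1.17 in the anac090 libraries. In every same-numbered pair the anac017 library was above wild type (by 0.15, 0.27 and 0.26) and the anac090 library below it (differences of -0.36, -0.25 and -0.78). How many of all genes do the same was not counted. The order by mean was anac017 (2.08 ± 0.29), wild type (1.85 ± 0.23), anac082 (1.77 ± 0.09) and anac090 (1.39 ± 0.33). Against wild type, the difference was -0.46 ± 0.20 (SE) in anac090, with a 95% interval from -0.91 to -0.02, an unadjusted p of 0.0419 and an adjusted p of 0.140. Without anac090 replicate 2 it was -0.65 with an adjusted p of 0.0286, and without anac082 replicate 1 and anac090 replicate 3 it was -0.35 with an adjusted p of 0.383. Leaving out anac090 replicate 2 also raised the share of all genes called in this comparison from 7.31% to 29.8%. A neighbour on the opposite strand (AT4G14100) overlaps 230 bases of UGT75C1, and it too was lower in anac090, with a difference of -0.40 ± 0.15 (SE, adjusted p = 0.101). No source used here says whether the authors counted by strand, so reads of the overlap cannot be told apart.

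UF3GT (AT5G54060, 5:21936879-21938369), which adds xylose to the anthocyanin glucoside, was too low to test. Its levels were 0.20, 0 and 0.72 in wild type replicates 1 to 3 and 0, 0.31 and 1.42 in the anac017 libraries. They were 0, 0.24 and 0.57 in the anac082 libraries and 0.20, 0.13 and 0.26 in the anac090 libraries. Its highest value was again that of anac017 replicate 3, and all ranges overlapped.

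Of the 6 members tested, 0 were called in anac017 against wild type, where 2.09% of all 16817 genes were called, and the corresponding counts were 0 of 6 beside 0.0476% in anac082 and 0 of 6 beside 7.31% in anac090. At an unadjusted p under 0.05 there were 1 (LDOX), 0 and 2 (F3H and UGT75C1) members in these comparisons, beside 25.2%, 7.17% and 32.2% of all genes, which the shares of the members do not clearly exceed. Leaving out DFR and LDOX, the 4 other tested members (PAP1, CHS, F3H and UGT75C1) had median differences of 0.28 in anac017, -0.29 in anac082 and -0.52 in anac090. The medians over all genes were -0.02, -0.01 and -0.03. The median of all 6 in anac017 was 0.58, which includes the genes that entered through anac017. The values of the groups did not overlap for 1 of the 6 members in anac017 (LDOX, where 41.6% of all genes did not overlap), 1 in anac082 (F3H, 18.7% of all genes) and 0 in anac090 (31.6% of all genes). The 3 comparisons share the wild type libraries.

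**Figure D2:**
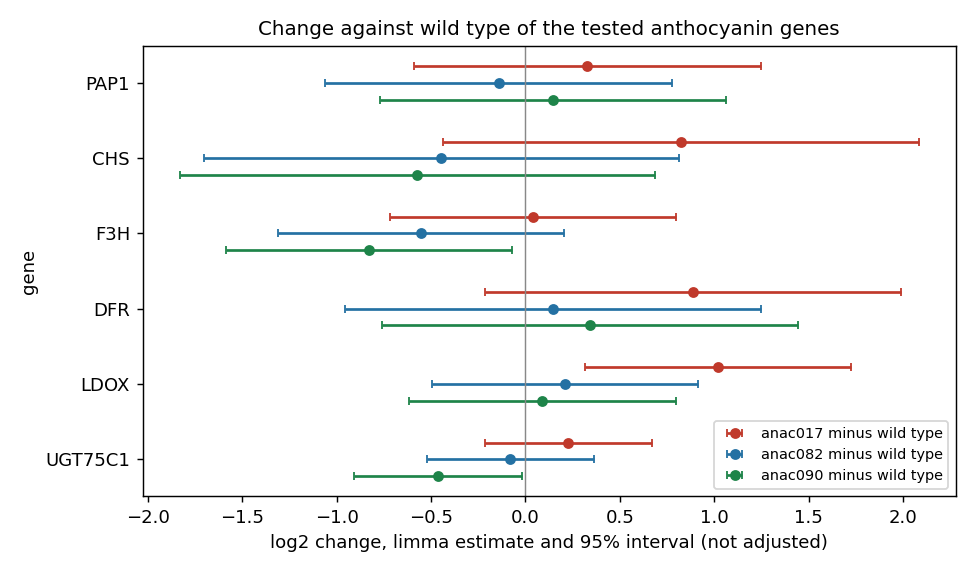
Difference from wild type of the 6 tested genes in each mutant, as the limma estimate on the log2 scale with its 95% interval, not adjusted for the number of genes. The intervals of LDOX in anac017 (0.31 to 1.73) and of F3H and UGT75C1 in anac090 lie to 1 side of 0, where LDOX was tested only because of its high anac017 values, and the other 15 include 0.

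Compared with each other, the mutants differed most between anac090 and anac017. The 4 members that did not enter through anac017 were all lower in anac090, with a median of -0.78 beside 0.00 over all genes, and 3 of these had an unadjusted p under 0.05, beside 12.7% of all genes. With LDOX, which entered through anac017, those under 0.05 were UGT75C1 (-0.69 ± 0.20 SE, adjusted p = 0.151), LDOX (-0.93 ± 0.32, adjusted p = 0.241), F3H (-0.87 ± 0.34, adjusted p = 0.318) and CHS (-1.40 ± 0.57, adjusted p = 0.336). In this comparison 0 of the 6 members and 1.48% of all genes were called. Between anac082 and anac017, 0 members and 0.892% of all genes were called, with unadjusted p-values under 0.05 for LDOX (-0.81 ± 0.32, adjusted p = 0.361) and CHS (-1.27 ± 0.57, adjusted p = 0.439), beside 11.3% of all genes. Between anac090 and anac082, 0 members and 0.0119% of all genes were called, and 0 members had an unadjusted p under 0.05.

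The members were high together in 1 library. In 7 of the 9 the highest value was in anac017 replicate 3, and in the other two, PAP1 and UGT75C1, it was in anac017 replicate 2. Of the 6 tested members it was in anac017 replicate 3 for 4, namely CHS, F3H, DFR and LDOX, of which DFR and LDOX entered the test through anac017. Among all genes tested, 5.38% had their highest value in anac017 replicate 3, 16.9% in any anac017 library and 26.6% in anac090 replicate 3. The mean over the 6 tested members was lowest in replicate 1 of every genotype. It was highest in replicate 3 of wild type, anac017 and anac082, but in replicate 2 of anac090. In anac082 replicates 1 to 3 it was 1.22, 1.597 and 1.69, and in the anac090 replicates 1.18, 1.76 and 1.35. It was 1.32, 1.63 and 1.99 in wild type replicates 1 to 3 and 1.54, 2.14 and 2.93 in the anac017 replicates. The anac017 library was thus the higher of each same-numbered pair with wild type. This mean includes DFR and LDOX, so part of that order follows from the filter. Of the other 4, CHS and UGT75C1 were higher in anac017 in 3 of 3 pairs, PAP1 in 2 and F3H in 1. Values of clock genes are given beside this. In the fit without a block, 0 of 2 morning and 0 of 5 evening genes were called in any comparison with wild type. With replicate number as a block, 1 of 2 morning and 3 of 5 evening genes were called in anac017, beside 7.16% of all genes. In anac090 the block gave 2 and 2, beside 18.2% of all genes, and in anac082 0 and 0, beside 0.0357%. An index of morning minus evening clock genes was lowest in replicate 1 of every genotype and had a mean of 2.55 ± 0.93 (SD) in wild type. Its mean was 1.43 ± 0.91 for anac017, 1.76 ± 0.93 for anac082 and 1.46 ± 0.72 for anac090. Differences in the index between genotypes, and its part in the differences above, were not tested.

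DFR and LDOX varied together over the 12 libraries mainly through anac017 replicate 3, and F3H and UGT75C1 varied together with or without it. As a description, with libraries of 4 genotypes and shared replicate numbers behind the points, Pearson's r was 0.84 for DFR and LDOX (Spearman's rho 0.59), and it was 0.46 without anac017 replicate 3 and 0.39 without the 2 libraries farthest from the median of DFR. For F3H and UGT75C1, r was 0.85 (rho 0.83), and it was 0.82 without anac017 replicate 3 and 0.72 without the 2 libraries farthest from the median of F3H. The relation of DFR and LDOX rests largely on 1 library, and both genes had entered the test through the genotype of that library. Of the 15 pairs of tested members the lowest r was 0.23, between PAP1 and F3H. Without anac017 replicate 3, r was -0.19 for F3H and DFR, -0.05 for DFR and UGT75C1 and -0.04 for F3H and LDOX. It was positive for every other pair.

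**Figure D3:**
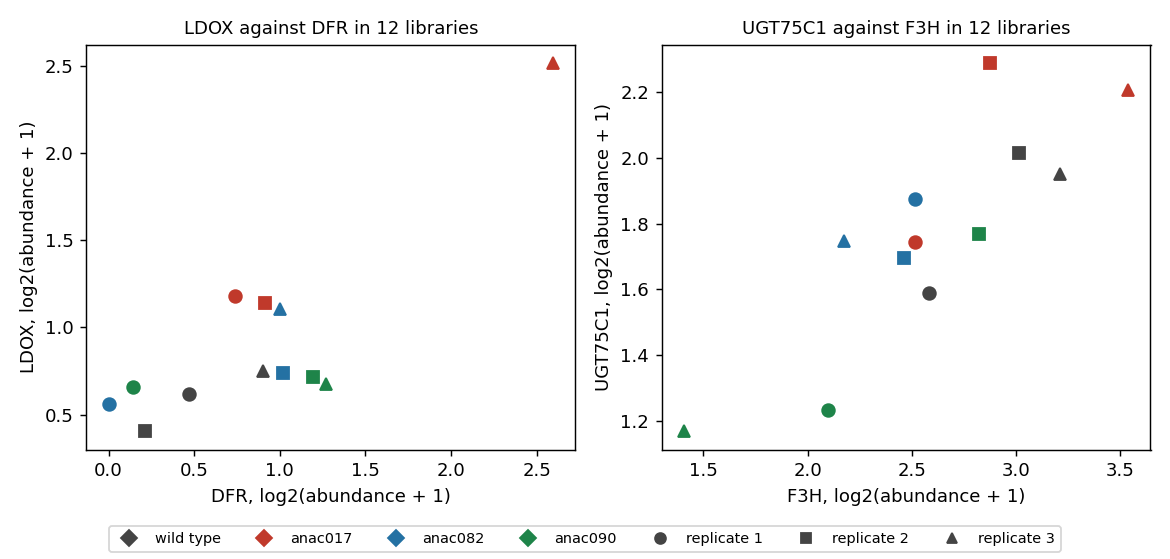
Level of LDOX against DFR (left) and of UGT75C1 against F3H (right), each axis in log2(abundance + 1), with 1 point for each of the 12 libraries, coloured by genotype and shaped by replicate number. On the left anac017 replicate 3 lies alone at 2.59 and 2.51, and on the right the libraries spread along the whole range, with anac090 replicate 3 lowest at 1.41 and 1.17.

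Genes that follow the members were found by their correlation with the mean of the 6 z-scored members over the 12 libraries. Among the 8 highest was GSTF12 (r = 0.86), the glutathione S-transferase known as TT19, which is needed to bring anthocyanins to the vacuole. Its levels were 0.13, 0.48 and 1.54 in wild type replicates 1 to 3 and 0.78, 1.3 and 3.06 in the anac017 libraries. They were 0.29, 1.23 and 0.95 in the anac082 libraries and 0.13, 0.89 and 1.43 in the anac090 libraries, again highest in anac017 replicate 3. The difference between anac017 and wild type was 1.00 ± 0.58 (SE, adjusted p = 0.294). GSTF12 too passed the filter only through anac017, with a mean abundance of 1.42 over all libraries and 0.837 without anac017. The others were AT5G42660 (0.90), the trehalose phosphate synthase family gene TPS7 (0.90), AT5G61340 (0.86), AT4G34660 (0.84), the NAD transporter gene NDT1 (0.82), the chromatin remodelling subunit gene SWC2 (0.82) and AT1G07010 (0.82). By deviations from the genotype means, the 5 highest were SCL27 (0.95), SPL6 (0.95), TTG1 (0.93), AT1G29720 (0.93) and AT3G50050 (0.92). This measure leaves out differences between genotypes, and all 5 had a lower mean in anac017 than in wild type. TTG1 is the WD40 partner of the MYB and helix-loop-helix factors, and by values its r was 0.44, at rank 1097.

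Among the neighbouring steps of the pathway 2 genes passed the test against wild type. In the phenylpropanoid entry list 6 of 8 genes were tested, and 1 changed. PAL2, a phenylalanine ammonia-lyase, fell by 0.70 on the log2 scale in anac090 (SE 0.14, adjusted p = 0.0307), from 5.45, 5.60 and 5.96 in wild type to 5.02, 5.04 and 4.83. In the flavonoid and flavonol list 4 of 7 were tested, and 1 changed. UGT89C1, a flavonol 7-O-rhamnosyltransferase, rose in anac017 by 1.14 ± 0.22 (SE, adjusted p = 0.0310), from 2.18, 2.36 and 2.05 to 3.35, 3.22 and 3.42. Both calls were lost when any 1 wild type library was left out. The call of UGT89C1 was also lost without any 1 anac017 library or anac082 replicate 3, with adjusted p-values up to 0.124. That of PAL2 was also lost without anac017 replicate 3, anac082 replicate 3, anac090 replicate 1 or anac090 replicate 3, with adjusted p-values up to 0.0963, and in the fit of its 2 groups alone (adjusted p = 0.178). UGT89C1 was also 0.71 higher in both anac082 and anac090, with adjusted p-values of 0.664 and 0.0671. A natural antisense gene (AT1G06002) overlaps 918 bases of UGT89C1 and was itself 1.28 ± 0.25 higher in anac017 (adjusted p = 0.0314), and reads of the overlap cannot be told apart.

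In the decoration and transport list 6 of 7 genes were tested and 0 were called. UGT78D2, the anthocyanidin and flavonol 3-O-glucosyltransferase, was -0.39 ± 0.11 (SE) against wild type in anac017 (adjusted p = 0.0832, or 0.0297 with replicate number as a block). The block raised the share of all genes called to 7.16% in anac017 and 18.2% in anac090, so the calls it adds here and below are to be read beside these shares. SAT, which adds a sinapoyl group, was -1.08 ± 0.45 in anac090 (adjusted p = 0.129, or 0.0342 with the block). Of 9 repressors, 9 were tested and 0 were called. SPL9, a factor known to interfere with the MYB complex, was -0.59 ± 0.15 in anac017 (adjusted p = 0.0696), and MYBL2, a small MYB repressor, was -0.27 ± 0.09 (adjusted p = 0.109). Of the other activators, 3 of 7 were tested and 0 were called. TTG1 was -0.15 ± 0.08 in anac090 (adjusted p = 0.203) and HY5, the bZIP factor of light signalling, -0.28 ± 0.22 in anac017 (adjusted p = 0.435).

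The sinapate and lignin branch competes for the same phenylpropanoids, and 9 of its 9 genes were tested with 0 called. FAH1, ferulate 5-hydroxylase, was 1.09 ± 0.34 (SE) higher in anac090 (adjusted p = 0.0671, or 0.0335 with the block), and HCT, a hydroxycinnamoyl transferase, was -0.47 ± 0.15 (adjusted p = 0.0691, or 0.0484 with the block). None of 3 flavonol MYB factors and none of 7 genes of seed coat proanthocyanidins reached the level for testing, and TT12, TT1 and TT10 of the last list were listed at 0 in every library. The median difference in anac017 and anac090 was -0.06 and -0.06 for the tested phenylpropanoid genes, -0.23 and -0.42 for the flavonoid and flavonol genes, and 0.15 and 0.02 for decoration and transport, or -0.10 and 0.02 without GSTF12. It was -0.26 and -0.10 for the repressors and 0.15 and 0.17 for the sinapate and lignin branch, beside -0.02 and -0.03 over all genes.

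**Figure D4:**
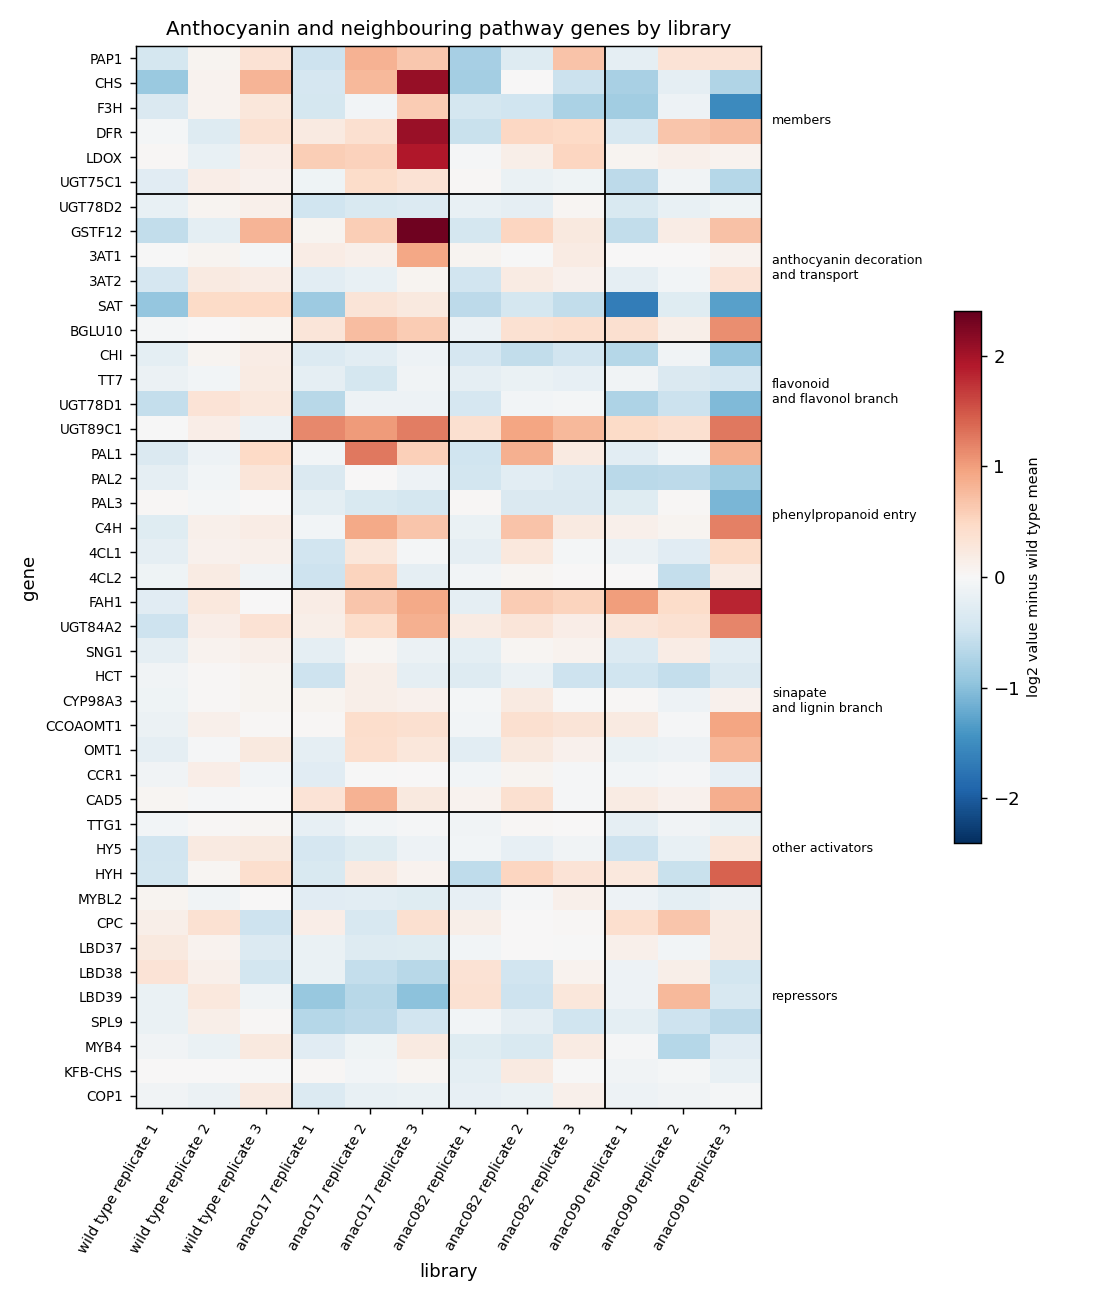
Level of each tested gene of the anthocyanin set and its neighbouring lists in the 12 libraries, as the log2 value minus the wild type mean (red higher, blue lower). CHS, DFR, LDOX and GSTF12 are darkest red in anac017 replicate 3, UGT89C1 is red in all 3 anac017 libraries, and F3H and SAT are blue in anac090 replicates 1 and 3.

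Anthocyanins and other flavonoids of leaves are made largely in the outer cell layers, so epidermal markers are given beside F3H and UGT75C1. The summed abundance of 4 epidermis markers, most of it from KCS6, ranged from 241 to 397 over the wild type libraries. It ranged from 204 to 302 for anac017, from 188 to 298 for anac082 and from 133 to 261 for anac090, with PDF1 listed at 0 in all libraries and anac090 replicate 3 lowest. The wax synthesis gene KCS6 was -0.91 ± 0.30 (SE) in anac090 against wild type (adjusted p = 0.0762, or 0.0207 with the block) and the epidermal regulator ATML1 was -0.71 ± 0.23 (adjusted p = 0.0723, or 0.0474 with the block). In bulk leaf RNA, fewer cells of a type and less RNA per cell cannot be told apart, and the part of these markers in the lower F3H and UGT75C1 values was not tested. Among markers of other leaf cells, SWEET12, a sugar exporter of the phloem, rose by 1.91 ± 0.36 in anac017 (adjusted p = 0.0286) and by 1.39 ± 0.36 in anac090 (adjusted p = 0.0465), where 0 of the 3 vasculature markers were called without anac082 replicate 1 and anac090 replicate 3. SWEET11 was 0.80 ± 0.23 higher in anac017 (adjusted p = 0.0815), while SUC2 of the companion cells differed by 0.00 ± 0.14 (adjusted p = 0.992). Of the guard cell regulators, FAMA was -0.53 ± 0.14 (adjusted p = 0.0677) and MYB60 -0.45 ± 0.16 (adjusted p = 0.121) in anac017, and the channel gene KAT1 differed by 0.00 ± 0.13 (adjusted p = 0.986). The summed abundance of the 3 vasculature markers was 345 to 468 in wild type and 524 to 631 in anac017, and that of the 3 guard cell markers was 26.4 to 28.1 and 21.4 to 23.3. Their part in the members' values in anac017 was not tested.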

How the data were processed

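Leaf poly(A) RNA from 12 samples was sequenced as strand-specific libraries, per the labels' protocols. TAIR10, TopHat, Cufflinks and CASAVA 1.8.2 are named, with no role or order, per the submitters' processing notes. The deposited values are log2 values, by their range (0 to 12.3), and were taken as log2(abundance + 1). At equal rank the libraries' values are within 0.0823 of each other, so quantile normalization came before deposit. Of 33726 entries, 529 had no gene identifier and were left out. The 16817 genes whose back-transformed values averaged 1 or more were tested with limma 3.58.1 (lmFit and eBayes with a trend, R 4.3.3) in 1 model of 4 groups, with Benjamini-Hochberg adjustment over all of them and a threshold of 0.05. The script was tested on simulated data.

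The members, lists and alternatives were chosen with earlier results of these data known. All members are named. Of each pathway list, genes past the threshold against wild type are named, and otherwise the 2 with the smallest p. The 8 and 5 genes most like the members follow by correlation. Replicate numbers come from the sample titles. The deviations of same-numbered libraries correlated by at least 0.165 in 5 of the 6 comparisons, and by as little as -0.31 between anac090 and anac082. The check with replicate number as a block treated all 6 as paired. Windows before gene starts were read from the RefSeq TAIR10.1 genome. Of 26689 protein-coding genes in both annotations, 0 failed to overlap.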

Additional observations from a re-analysis of the deposited data

Results flagged for a closer look

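UGT75C1 lay on opposite sides of the same-numbered wild type libraries in 2 mutants, higher in 3 of 3 anac017 libraries and lower in 3 of 3 anac090 libraries. This pattern was looked for among the members only, so its share over all genes is not known. Compared directly, the difference between anac090 and anac017 was -0.69 ± 0.20 (SE), with a limma adjusted p of 0.151, which did not pass the threshold.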

How the results depend on the processing

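The count of called members was 0 in all 6 comparisons, and 132 of 138 recomputed counts were also 0. Without a filter on low values, 1 member (PAP2, 0.36 ± 0.07 SE, adjusted p = 0.0451) was called in anac017 against wild type. Of all genes in that fit 1.23% were called, and 8 of the 12 values of PAP2 are 0. With limma's library weights, the counts against wild type were 1 in anac017 (LDOX, adjusted p = 0.0306) and 2 in anac090 (F3H and UGT75C1). They were 5 between anac090 and anac017, and 1 between anac090 and anac082 (UGT75C1). But that fit called 27.3%, 44.9%, 23.0% and 22.6% of all genes in these comparisons. The 5 included DFR and LDOX, which entered the test through anac017, so their calls in comparisons with anac017 support no difference. That fit gave anac090 replicate 1 a weight of 28.2 while the other libraries had 0.132 to 1.56, so the anac090 group rests on that library, and the estimation of the weights stopped before it converged. Leaving out each library in turn gave 0 to 2 called members in anac090 against wild type, the 2 being F3H and UGT75C1 without anac090 replicate 2, and 0 in the other comparisons. Without anac090 replicate 2, 29.8% of all genes were called in anac090 against wild type. Leaving out both anac082 replicate 1 and anac090 replicate 3, which was chosen after seeing the data, gave 0 called members in each comparison. With replicate number as a block, 0 members were called in any comparison. The adjusted p of LDOX in anac017 was 0.0514 in that fit, a description only, since LDOX entered through anac017. Of 816 recomputed single values, 12 were newly past the threshold, and 28 had another sign without passing it. The cause of these shifts was not tested. Depth is unknown, so differences of members near 0 (PAP2, TT8, UF3GT) could not be judged against counting error.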
